A study of Malus domestica with 8 samples.

Results

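A stretch of neighbouring identifiers of apple chromosome 14, from MD14G1073900 to MD14G1091300, was followed in leaves of 3 MdAGG knock-out lines and of the non-transformed control. The members were the features of that stretch with at least 10 rounded reads in 2 or more of 8 libraries. They numbered 110 of the 172 features in the stretch, 110 of the 32373 features tested and 110 of the 52311 features in the files. The first member was MD14G1074400 and the last was MD14G1091300. The stretch was chosen by the measured differences of the lines from the control in these same libraries, as the place where a run of raised transcript levels met features without one. The differences between the lines and the control inside it are therefore given as a description, with no test read from them.

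The libraries came from the apple cultivar 'Gala' (Malus domestica), and each was a bulk of leaves. The control (wt) was non-transformed 'Gala', and 3 lines of the same cultivar, named mdagg-2, mdagg-3 and mdagg-4, carried CRISPR/Cas9 knock-outs of MdAGG. Each of the 4 groups had 2 libraries, which the series' design text assigns to 2 independent experiments. All plants, wt included, were rooted in vitro and then spent 8 weeks under glass (22 °C, relative humidity 80%). All received a spray of 0.2 g/l acibenzolar-S-methyl (ASM) and were sampled on day 3 after it, so no group measured untreated leaves. No transformed but unedited control was among the groups. The knock-out was not checked on its own transcript, because the files pair no identifier with a gene name.

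MdAGG is an agglutinin of apple, a lectin that binds carbohydrates, and its transcripts accumulate in leaves after treatment with ASM. ASM is a synthetic analogue of salicylic acid that induces plant defence. In the apple nomenclature the digits before the letter G name the chromosome, and the digits after it rise along that chromosome. Genes with neighbouring identifiers therefore lie near each other, although they need not share a function. The files give no coordinates, so positions here are places in the order of identifiers. None of the members (0 of 110) matched the RefSeq gene table (51804 genes, assembly GDT2T_hap1), so no gene name, function or cell type marker is given for a member. In bulk leaf samples, fewer cells of a type and less RNA per cell cannot be told apart.

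The libraries held from 28591909 to 36995911 reads. Along the first principal component, which carried 46.3% of the variance, mdagg-2 replicate 1 and mdagg-4 replicate 2 lay at opposite ends. Values below are therefore given per library where these libraries bear on them. Over all tested features the median log2 difference from wt was 0.00 for mdagg-2, -0.00 for mdagg-3 and -0.01 for mdagg-4. Levels are normalised read counts in CPM (reads set against the scaled library total, with trimmed mean of M values factors), and each difference is a difference of group means of log2 CPM, with a prior count of 2.

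The members were ordinary in level and length. Their median level was 8.15 TPM, a unit corrected for transcript length, against 7.66 over all tested features, and single members ranged from 0.19 to 292 TPM. Their median transcript length was 1336.5 bases, against 1515 over all tested features. Of the 110 members, 57 had a mean log2 CPM above 3, the level above which values are called well measured here, and 53 had less. Across the members the difference from wt was nearly unrelated to the mean level, with a Spearman's rho of 0.02, 0.05 and -0.02 in mdagg-2, mdagg-3 and mdagg-4. With transcript length rho was 0.02, -0.14 and 0.11, over the same 110 members, which share their libraries. The other 62 features of the stretch held at most 12 reads in any library, and 32 of them had no read at all. The threshold was passed by a member with 11 reads in its second-highest library and missed by a feature with 8. Estimated reads were whole numbers, to within 1e-09, in all 8 libraries for 32 members (29.1%), against 25.3% of all tested features.

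All 3 lines held more of their reads in these members than wt did. The members took up 0.303% and 0.284% of the reads in the wt libraries. The share was 0.396% and 0.400% for mdagg-2, 0.358% and 0.399% for mdagg-3 and 0.379% and 0.393% for mdagg-4. All 6 knock-out libraries lay above both wt libraries on this share, which uses no scaling beyond the library total. As a sum of reads, the share rests most on the members with many reads. The highest was MD14G1087500, with a mean log2 CPM of 9.71. Its log2 differences from wt were 1.07, 0.76 and 0.40 in mdagg-2, mdagg-3 and mdagg-4.

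Most members were modestly higher in the lines. The median log2 difference from wt was 0.26 for mdagg-2 (1.19-fold), 0.27 for mdagg-3 (1.21-fold) and 0.33 for mdagg-4 (1.26-fold). The difference was above 0 for 77 members in mdagg-2, for 75 in mdagg-3 and for 95 in mdagg-4. Single libraries gave medians against the wt mean of 0.26 and 0.30 for mdagg-2, 0.31 and 0.33 for mdagg-3 and 0.28 and 0.37 for mdagg-4. Between the wt libraries the median of replicate 2 minus replicate 1 was -0.05. Each of the 12 pairs of 1 knock-out and 1 wt library had a positive median, between 0.20 and 0.38. Among the 57 well measured members the medians were 0.32, 0.29 and 0.33 in mdagg-2, mdagg-3 and mdagg-4, and 42, 45 and 54 of the 57 were above 0.

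The difference stood above 0 in all 3 lines for 59 members (53.6%), against 18.3% of all tested features, and below 0 in all 3 for 5 members, against 18.5%. All 6 knock-out libraries exceeded both wt libraries in 23 members, where 2.89% of all tested features met that condition. All 6 lay under both wt libraries in 2 members, MD14G1074800 and MD14G1077200, with 1.54% of all tested features meeting that condition. In mdagg-2 both libraries lay above both wt libraries for 42 members (15.3% of all tested features) and below for 7 (14.7%). In mdagg-3 these numbers were 47 members above (16.9% of all tested features) and 16 below (16.4%). In mdagg-4 they were 48 above (13.5%) and 5 below (14%).

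No member passed the threshold across all features in edgeR's quasi-likelihood test. In mdagg-2 against wt, 0 members were called at an adjusted p of 0.05, with 0.00309% of all tested features called higher and 0% lower. At an unadjusted p under 0.05, 15 members were higher (2.04% of all) and 1 lower (1.6%). In mdagg-3 against wt, 0 members were called (0% of all in either direction), and at the unadjusted level 11 were higher (1.97%) and 1 lower (1.16%). In mdagg-4 against wt, 0 members were called (0.00309% of all higher and 0% lower), and 3 were higher (1.49%) and 0 lower (1.45%) at the unadjusted level. The smallest edgeR adjusted p was 0.998 in mdagg-2, a value tied over most members, and the member with the smallest unadjusted p there was MD14G1081800.

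DESeq2 also called 0 members in each line. For mdagg-2 it called 0.0719% of all features higher and 0.0231% lower, for mdagg-3 0.0928% and 0.0299%, and for mdagg-4 0.15% and 0.138%. The authors' deposited table held 1 member called higher and 1 called lower in mdagg-3, where it called 0.363% of all its features higher and 1.13% lower. It held 0 called members in mdagg-2, with 0.0365% of its features called higher and 0.0274% lower. It held 0 in mdagg-4, with 0.143% called higher and 0.166% lower. As the stretch was chosen on these contrasts, nothing is read from these counts.

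**Figure D1:**
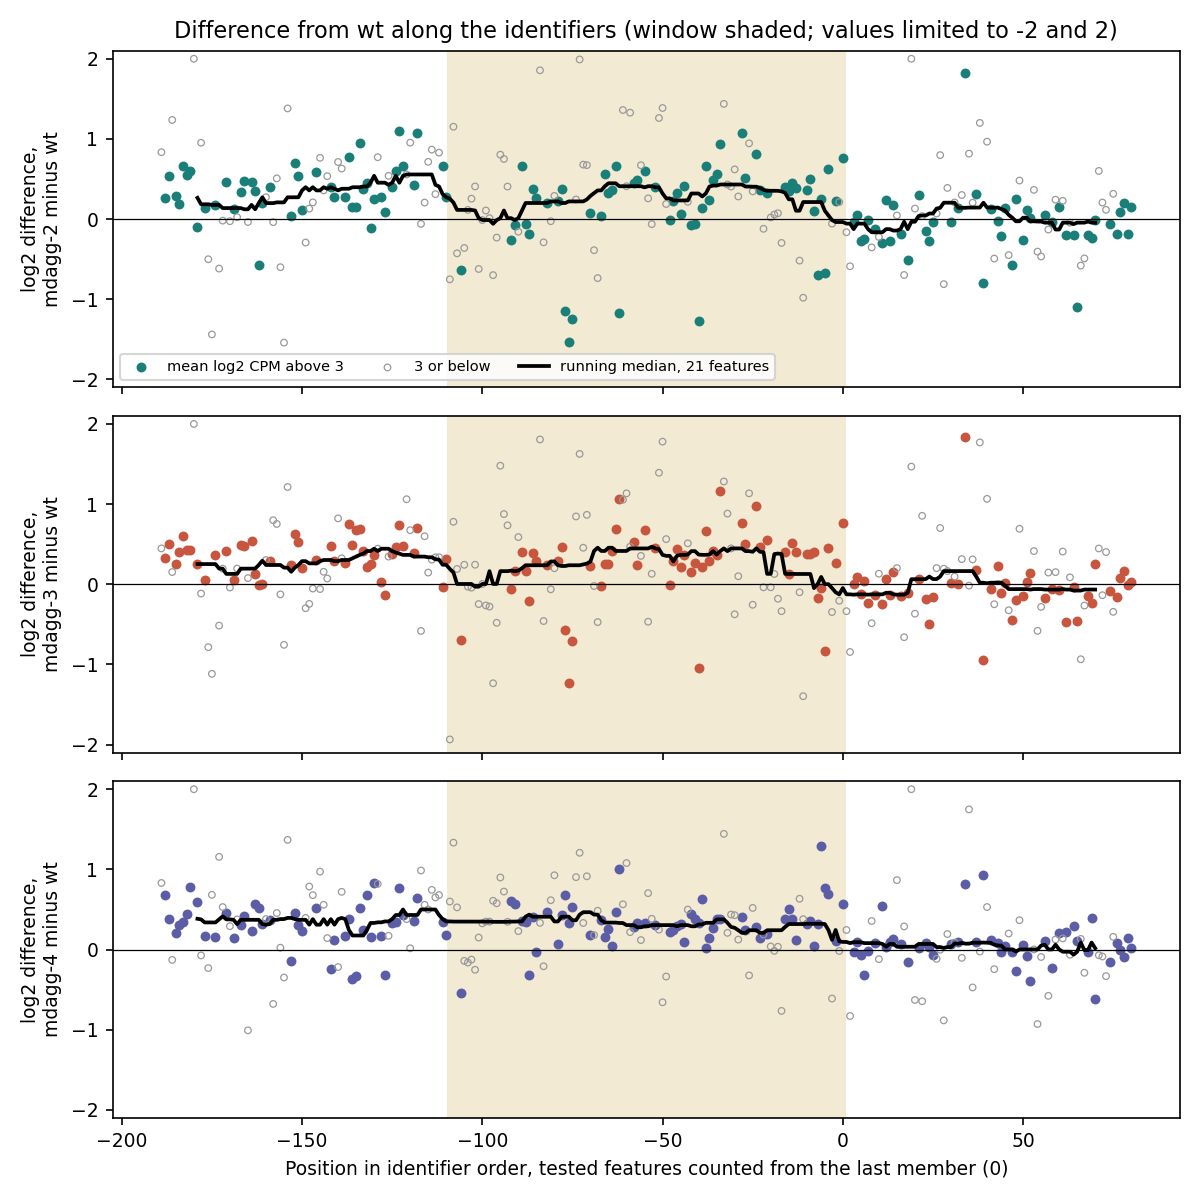
Each panel plots the log2 difference of one line from wt (vertical axis, limited to -2 and 2) against the place of each tested feature in identifier order, counted from the last member at 0 (horizontal axis). The shaded band holds the 110 members, filled points have a mean log2 CPM above 3, open points less, and the black line is the running median of 21 features. The running median was above 0 through most of the band in each line, dipped to about 0 near its start in mdagg-2 and mdagg-3, and lay close to 0 after it.

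The members differed in how regular the increase was. MD14G1077300 is an example of a well measured member with little spread. Its level was 101.5 and 87.6 CPM in wt, against 122 and 122 for mdagg-2, 120 and 127 for mdagg-3 and 116 and 135 for mdagg-4. All 6 knock-out libraries were above both wt libraries, and the log2 differences were 0.37, 0.39 and 0.41. MD14G1083600 had 116 and 97.4 CPM in wt, against 152 and 129 for mdagg-2, 153 and 138 for mdagg-3 and 134 and 129 for mdagg-4. Its groups again did not overlap with wt, and the log2 differences were 0.40, 0.45 and 0.30. These 2 members were chosen after their values were seen.

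MD14G1081800 had little spread inside the groups. It had 8.64 and 8.57 CPM in wt, against 13.6 and 13.7 for mdagg-2, 14.5 and 13.3 for mdagg-3 and 12.5 and 11.3 for mdagg-4. The libraries of each group lay close together and every knock-out library was above wt, with log2 differences of 0.66, 0.69 and 0.47, each with an edgeR standard error of 0.18. MD14G1081200, 2 members before it, had 11.9 and 12.6 CPM in wt and between 13.9 and 16.04 in the 6 knock-out libraries, with log2 differences of 0.32, 0.25 and 0.25. The member just after MD14G1081800, MD14G1081900, differed between lines, with 7.79 and 14.7 CPM in wt, against 1.41 and 15.5 for mdagg-2, 14.7 and 34.2 for mdagg-3 and 23.5 and 19.9 for mdagg-4. Its log2 differences were -1.17, 1.06 and 1.01, and it was chosen after its values were seen. MD14G1080600 stood closer to wt, with 30.6 and 29.99 CPM there and between 31.3 and 37.2 in the knock-out libraries, and did not overlap with it. MD14G1081500 had 62.2 and 48.4 CPM in wt, against 72.7 and 68.1 for mdagg-2, 62.5 and 85.9 for mdagg-3 and 49.3 and 65.3 for mdagg-4, and only mdagg-4 overlapped with wt. MD14G1081100 had 25.2 and 23.3 CPM in wt, against 35.6 and 36.4 for mdagg-2, 30.2 and 27.9 for mdagg-3 and 27.3 and 27.0 for mdagg-4. Here the lines were ordered, with mdagg-2 the farthest from wt and mdagg-4 the nearest, and log2 differences of 0.57, 0.26 and 0.16.

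The 3 members with the highest TPM were MD14G1085300 (292 TPM), MD14G1084900 (290 TPM) and MD14G1083200 (260 TPM). MD14G1085300 had 339 and 193 CPM in wt, against 501 and 327 for mdagg-2, 407 and 408 for mdagg-3 and 267 and 253 for mdagg-4. The wt libraries were far apart, and both mdagg-4 values and the replicate 2 value of mdagg-2 lay between them. MD14G1084900 had 138 and 177 CPM in wt, against 134 and 164 for mdagg-2, 210 and 144 for mdagg-3 and 244 and 186 for mdagg-4. Only mdagg-4 lay above both wt libraries, while the mdagg-2 and mdagg-3 values overlapped with wt. MD14G1083200 had 78.3 and 86.4 CPM in wt, against 166 and 94.1 for mdagg-2, 148 and 116 for mdagg-3 and 112 and 96.5 for mdagg-4. All 6 knock-out libraries were above wt, replicate 1 the higher in each line, with log2 differences of 0.61, 0.68 and 0.34.

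Among the well measured members, the largest mean differences of the lines from wt belonged to MD14G1086100, MD14G1087500 and MD14G1091300. MD14G1087500 had the highest CPM of these, with 614 and 528 in wt, against 1367 and 1052 for mdagg-2, 787 and 1183 for mdagg-3 and 1025 and 552 for mdagg-4. The mdagg-2 and mdagg-3 libraries lay above both wt libraries, and mdagg-4 replicate 2 lay between them. The log2 differences were 1.07, 0.76 and 0.40. MD14G1086100 had 5.28 and 9.81 CPM in wt, against 23.2 and 8.29 for mdagg-2, 32.7 and 8.01 for mdagg-3 and 16.9 and 5.23 for mdagg-4. Replicate 1 of every line was above wt, while replicate 2 lay between the wt values in mdagg-2 and mdagg-3 and under both in mdagg-4, so its log2 differences of 0.94, 1.16 and 0.39 rested on replicate 1.

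MD14G1088200 was the member called higher in mdagg-3 in the authors' deposited table, with a log2 fold change of 0.97 and an adjusted p of 0.0293. It had 48.6 and 37.5 CPM in wt, against 90.9 and 61.4 for mdagg-2, 92.9 and 75.6 for mdagg-3 and 66.4 and 40.6 for mdagg-4. Replicate 1 was the higher library in each group, and only mdagg-4 overlapped with wt. MD14G1074400, the first member, was the one called lower in mdagg-3 in the authors' deposited table, with a log2 fold change of -1.88 and an adjusted p of 0.00194. It had 6.80 and 7.61 CPM in wt, against 1.34 and 13.2 for mdagg-2, 2.68 and 1.25 for mdagg-3 and 5.84 and 20.4 for mdagg-4. Its mdagg-2 and mdagg-4 libraries lay on either side of wt.

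A few members ran the other way. MD14G1074800 had 51.4 and 32.8 CPM in wt, against 27.9 and 24.8 for mdagg-2, 24.8 and 25.96 for mdagg-3 and 24.4 and 32.4 for mdagg-4. All 6 knock-out libraries lay under both wt libraries, mdagg-4 replicate 2 by the least, and the log2 differences were -0.64, -0.69 and -0.55. MD14G1077200 had 21.6 and 19.2 CPM in wt and between 15.3 and 18.7 in the knock-out libraries, with log2 differences of -0.18, -0.21 and -0.31. MD14G1077200 was chosen after its values were seen.

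The 2 well measured members with the lowest mean difference were MD14G1080000 and MD14G1085100, and in both the lines disagreed. MD14G1080000 had 34.4 and 19.7 CPM in wt, against 6.31 and 12.6 for mdagg-2, 15.8 and 7.68 for mdagg-3 and 15.7 and 68.8 for mdagg-4. Its mdagg-2 and mdagg-3 values were under wt, while the mdagg-4 libraries lay on either side of it. MD14G1085100 had 10.04 and 16.3 CPM in wt, against 1.86 and 14.6 for mdagg-2, 5.99 and 6.32 for mdagg-3 and 11.8 and 22.0 for mdagg-4. Here mdagg-2 replicate 1 stood far under the other libraries. MD14G1080100, beside MD14G1080000, had 51.0 and 22.8 CPM in wt, against 8.38 and 24.7 for mdagg-2, 26.5 and 16.4 for mdagg-3 and 27.3 and 88.7 for mdagg-4. Its lowest library was again mdagg-2 replicate 1 and its highest mdagg-4 replicate 2.

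**Figure D2:**
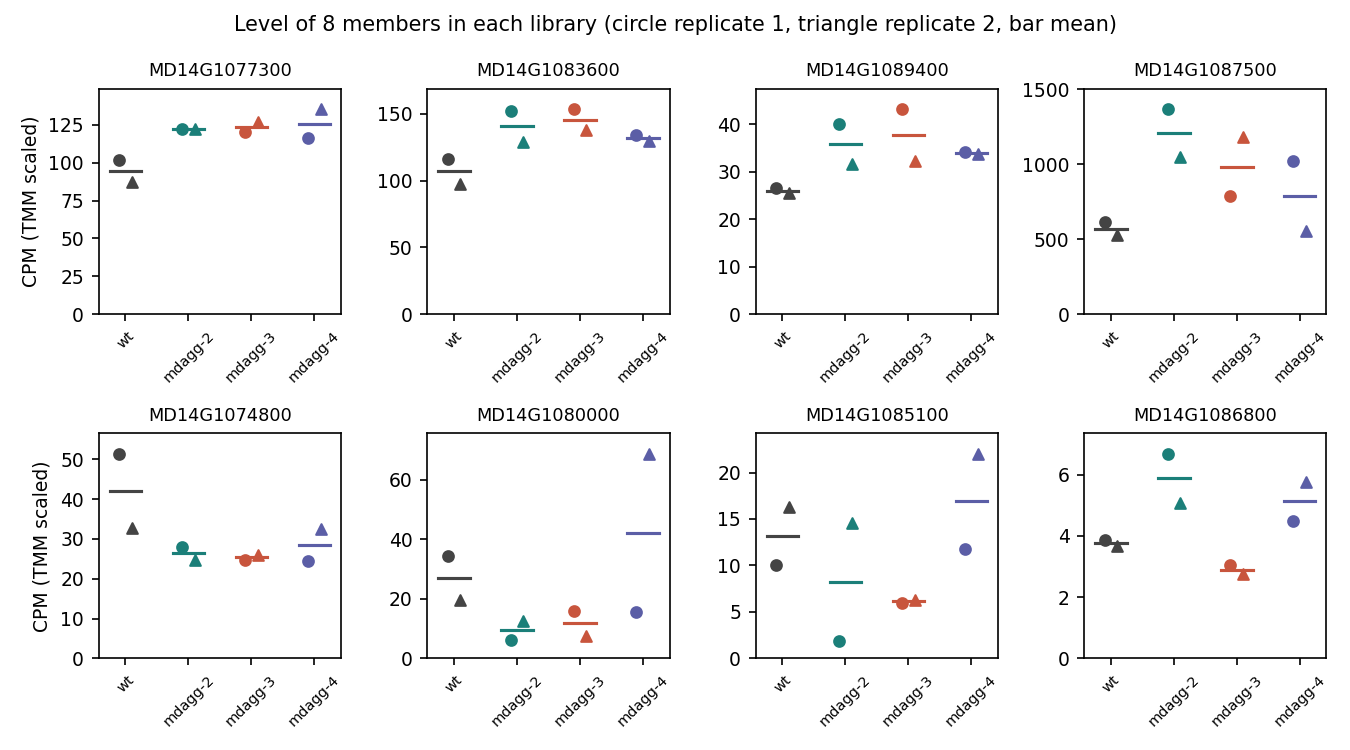
Each panel plots one member's level in CPM (vertical axis, from 0) in the 4 groups (horizontal axis), with a circle for replicate 1, a triangle for replicate 2 and a bar for the mean of the 2 libraries. MD14G1077300, MD14G1083600 and MD14G1089400 had every knock-out library above wt, MD14G1074800 had every one under wt, and MD14G1080000 and MD14G1085100 spread most widely between libraries.

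Low values in mdagg-2 replicate 1 were found in further members. In mdagg-2 replicate 1, 15 members were more than 1 log2 unit under the wt mean, which 8.63% of all tested features also were. In the same library 12 members were more than 1 unit above the wt mean, as were 5.04% of all tested features. Of the 15 low members, 14 were above the wt mean in mdagg-4 replicate 2, where 92 of the 110 members were. In that library 9 of the 15 were more than 1 unit above the wt mean, as were 17 of the 110. In mdagg-2 replicate 2, 9 of the 15 were above the wt mean, where 89 of the 110 were. In mdagg-3, 13 of the 15 were below the wt mean in replicate 1 and 12 in replicate 2. Of the 110 members, 72 and 75 were above it in these mdagg-3 libraries. The 15 were picked on 1 library, and the part of library differences in their values was not tested.

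Along the identifiers, the members were put in 5 consecutive blocks of 22. In mdagg-2 the block medians of the log2 difference were -0.04, 0.21, 0.40, 0.42 and 0.22. In mdagg-3 they were 0.08, 0.23, 0.44, 0.43 and 0.13. In mdagg-4 they were 0.35, 0.39, 0.28, 0.35 and 0.32. The first block, from MD14G1074400 to MD14G1077100, was thus near 0 in mdagg-2 and mdagg-3 and not in mdagg-4. The median of mdagg-4 minus mdagg-2 in that block was 0.29, with no test of it. The mdagg-2 libraries differed within that block, with medians of -0.34 in replicate 1 and 0.28 in replicate 2. Only 5 of the 22 members of the first block were well measured.

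The features just before the stretch were higher in all 3 lines. The last 20 well measured features before the stretch, from MD14G1069300 to MD14G1073800, had medians of 0.39 (mdagg-2), 0.39 (mdagg-3) and 0.34 (mdagg-4). The 459 tested features of chromosome 14 before the stretch together had medians of 0.35, 0.39 and 0.38. MD14G1073800, the feature just outside, had log2 differences of 0.27, 0.31 and 0.19. Several members of the first blocks showed the same split between lines. MD14G1076700 had 24.8 and 35.6 CPM in wt, against 16.7 and 36.6 for mdagg-2, 26.4 and 31.0 for mdagg-3 and 41.4 and 49.2 for mdagg-4. Only the mdagg-4 libraries lay above both wt libraries, as they also did for its neighbour MD14G1076800, with 12.4 and 14.3 CPM in wt and 21.8 and 17.9 in mdagg-4. MD14G1077100 had 19.7 and 18.6 CPM in wt, against 13.7 and 24.6 for mdagg-2, 24.0 and 19.3 for mdagg-3 and 23.9 and 24.7 for mdagg-4. MD14G1077000, between these, was higher in every line, with 165 and 187 CPM in wt, against 297 and 260 for mdagg-2, 236 and 227 for mdagg-3 and 259 and 193 for mdagg-4.

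Where the increase ended was described by the split of the ordered features into 2 stretches that left the least sum of absolute deviations from their medians. Each stretch had to hold at least 10 features. Within the 110 members, an end with fewer than 10 members beyond it could therefore not be marked. Within that limit, the split over the members alone marked no end. It fell at MD14G1080900 in mdagg-2 (member 43), with a median of 0.03 before it and 0.36 after it. It fell at MD14G1076000 in mdagg-3 (member 14), with -0.14 before and 0.36 after, and at MD14G1075600 in mdagg-4 (member 10), with 0.01 before and 0.34 after. Member 10 was the earliest place allowed. With this setting the members after the split were the higher ones in each line. Under other settings the place moved widely, and in some the direction turned. By least squares in mdagg-4 the median was 0.35 before the split and 0.29 after it. In mdagg-4 replicate 2 alone, set against wt replicate 2, it was 0.45 before and 0.28 after by absolute deviations, and 0.60 and 0.29 by least squares. In mdagg-2 replicate 2 alone, set against wt replicate 2, it was 0.64 and 0.31 by least squares. MD14G1080900 itself had 14.1 and 16.5 CPM in wt, against 12.5 and 19.5 for mdagg-2, 15.0 and 15.2 for mdagg-3 and 17.99 and 21.5 for mdagg-4, above wt in both libraries only in mdagg-4.

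The increase ended at the far side of the stretch. Because the split within the members marked a rise and not an end, it was also taken over all 1542 tested features of chromosome 14. This alternative was chosen after seeing the data. A running sum of the members' differences, each less a set level, had no least length of stretch. It peaked at member 97 in mdagg-3, at 106 in mdagg-4 and at 110, the last member, in mdagg-2, where it thus marked no end inside the stretch. For the split over the chromosome, the last features before it were these. In mdagg-2 the last feature before the split was MD14G1089500, with 13 members beyond it and medians of 0.34 before and -0.03 after. In mdagg-3 it was MD14G1090200, with 8 members beyond it and medians of 0.37 and -0.03. In mdagg-4 it was MD14G1090900, with 4 members beyond it and medians of 0.37 and -0.01. Over well measured features alone the last feature was MD14G1091300 for mdagg-2, MD14G1090200 for mdagg-3 and MD14G1091300 for mdagg-4.

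The places of the end did not separate the lines. Replicate 1 alone, set against wt replicate 1, put it at MD14G1089500 for mdagg-2, MD14G1088300 for mdagg-3 and MD14G1088200 for mdagg-4. Replicate 2 alone, set against wt replicate 2, put it at MD14G1090900, MD14G1090200 and MD14G1090600. Single pairs within a line were thus as far apart as the lines were, with the wt library changing too. With both wt libraries kept, replicate 1 and replicate 2 ended at features 556 and 570 of the 1542 in mdagg-2. They ended at 546 and 561 in mdagg-3 and both at 565 in mdagg-4. In the split over all 1542 tested features, left-out libraries moved the end between features 546 and 570 for mdagg-2. They moved it between 546 and 561 for mdagg-3 and between 541 and 565 for mdagg-4. One fit set it outside these ranges at the near side. Over well measured features by least squares, mdagg-2 replicate 1 alone placed the end at MD14G1073800, before the first member, while replicate 2 alone placed it at MD14G1091300. On the far side, least squares over all tested features of the chromosome placed the mdagg-4 end at MD14G1095000, beyond the last member. Over well measured features, the mdagg-3 end fell at MD14G1091300 when mdagg-3 replicate 1 was left out. There mdagg-4 replicate 2 alone, set against wt replicate 2, placed it at MD14G1092000.

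The features on both sides of the end showed the step. The last 20 well measured members, from MD14G1085800 to MD14G1091300, had median log2 differences of 0.40 for mdagg-2, 0.41 for mdagg-3 and 0.36 for mdagg-4. Of these 20, 18, 17 and 20 were above 0, and the medians of the 12 library pairs ran from 0.23 to 0.61. The first 20 well measured features beyond, from MD14G1091900 to MD14G1099400, had medians of -0.04, -0.05 and 0.07. Of these 20, 7, 10 and 14 were above 0, and the medians of the 12 library pairs ran from -0.13 to 0.09. The border had been chosen on these same differences, and the pairs share libraries, so the step is a description and not a test. Over all 973 tested features beyond, the medians were -0.03, -0.03 and -0.01.

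Single features near the end followed this step, with exceptions among the last members. MD14G1089400 had 26.5 and 25.5 CPM in wt, against 39.98 and 31.6 for mdagg-2, 43.1 and 32.2 for mdagg-3 and 34.2 and 33.7 for mdagg-4. MD14G1089900 had 22.6 and 20.4 CPM in wt, against 27.0 and 28.2 for mdagg-2, 24.6 and 32.0 for mdagg-3 and 25.3 and 28.4 for mdagg-4. MD14G1090100 had 9.66 and 7.89 CPM in wt, against 11.3 and 13.6 for mdagg-2, 11.0 and 11.7 for mdagg-3 and 11.4 and 10.9 for mdagg-4. In each of these 3 members all 6 knock-out libraries lay above both wt libraries, and they are the last 3 members of which that holds. MD14G1090500 had 30.6 and 16.6 CPM in wt, against 10.1 and 70.8 for mdagg-2, 12.6 and 38.0 for mdagg-3 and 28.3 and 108 for mdagg-4. Its replicate 1 libraries lay under or between the wt values and its replicate 2 libraries above them, in every line. These 4 members were chosen after their values were seen.

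The last member and its neighbours beyond stood on either side of the end. MD14G1091300 had 35.2 and 20.4 CPM in wt, against 39.5 and 52.4 for mdagg-2, 34.8 and 59.5 for mdagg-3 and 34.1 and 46.1 for mdagg-4. Its replicate 2 libraries were all above wt, while replicate 1 of mdagg-3 and of mdagg-4 lay between the wt values, and the log2 differences were 0.76, 0.76 and 0.56. MD14G1091900, the next well measured feature, had 28.3 and 24.4 CPM in wt, against 25.7 and 25.5 for mdagg-2, 27.4 and 25.2 for mdagg-3 and 23.0 and 28.6 for mdagg-4. MD14G1092000 had 71.7 and 65.7 CPM in wt and between 63.2 and 84.7 in the knock-out libraries. Both overlapped with wt in every line, with log2 differences of -0.04, 0.00 and -0.03 for MD14G1091900 and 0.05, 0.09 and 0.09 for MD14G1092000. MD14G1092100 had 166 and 176 CPM in wt, against 145 and 138 for mdagg-2, 174 and 141 for mdagg-3 and 152 and 175 for mdagg-4, with log2 differences of -0.27, -0.13 and -0.07. These 3 features beyond the last member were chosen as its next well measured neighbours.

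**Figure D3:**
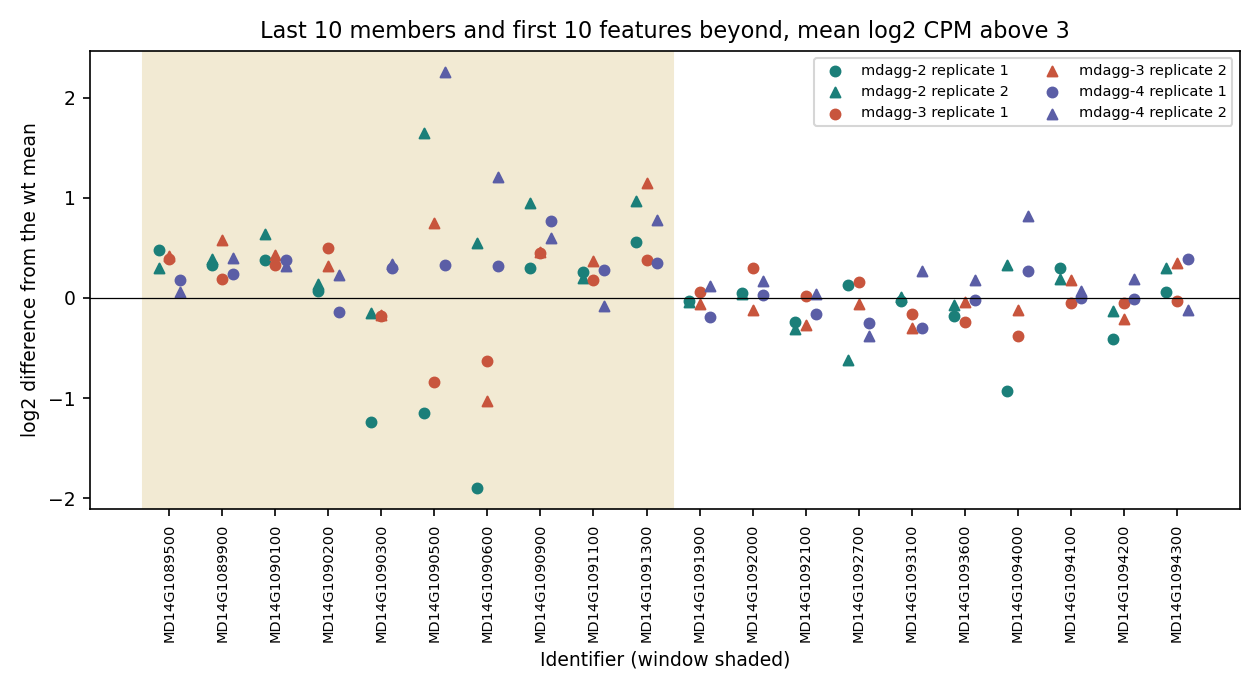
The log2 difference of each knock-out library from the wt mean (vertical axis) is plotted for the last 10 well measured members (shaded) and the first 10 well measured features beyond them (horizontal axis), with circles for replicate 1 and triangles for replicate 2. From MD14G1089500 to MD14G1090100 all points lay above 0, MD14G1090300 to MD14G1090600 spread widely, and the features from MD14G1091900 on scattered about 0.

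**Figure D4:**
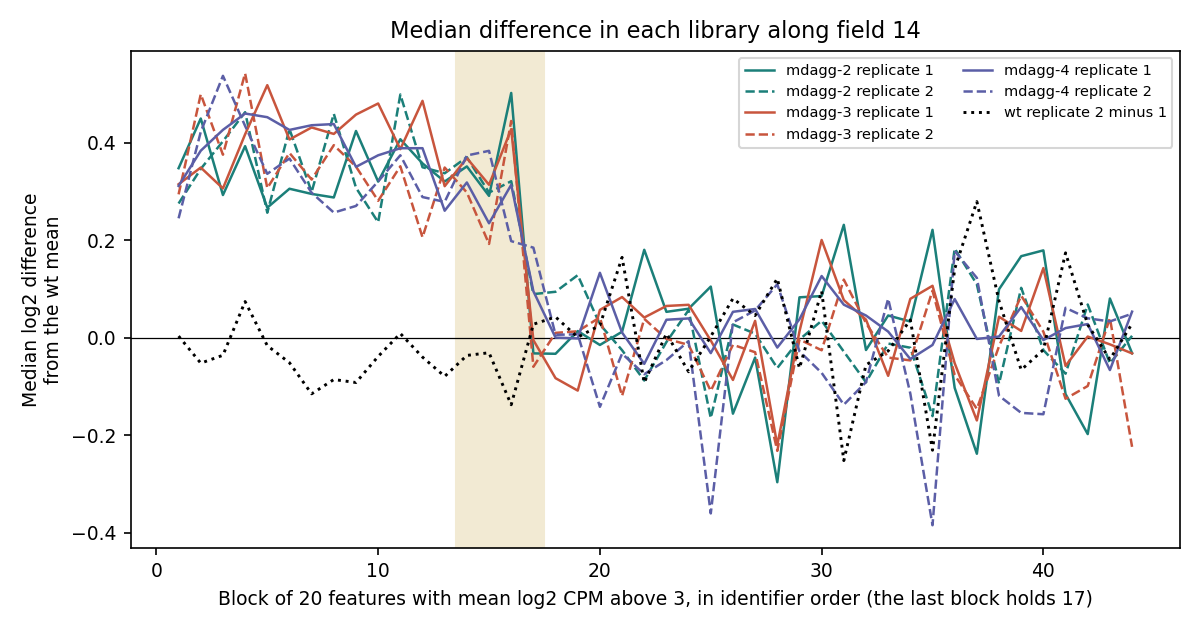
The median log2 difference of each knock-out library from the wt mean (vertical axis) is plotted for consecutive blocks of 20 well measured features along chromosome 14 (horizontal axis), with the blocks that hold members shaded and the difference between the wt libraries dotted. The 6 libraries lay above 0 in every block up to the third that holds members, which ends at MD14G1089900, and the next block, with 8 members, ran from -0.06 to 0.18.

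Over all members, direct differences between the lines had medians of 0.03 for mdagg-3 minus mdagg-2, -0.01 for mdagg-4 minus mdagg-2 and -0.02 for mdagg-4 minus mdagg-3. These medians joined blocks that ran both ways. From the first block to the fifth, mdagg-4 minus mdagg-2 had medians of 0.29, 0.17, -0.16, -0.17 and -0.05. Over the same blocks mdagg-4 minus mdagg-3 had medians of 0.25, 0.05, -0.19, -0.01 and -0.03, and mdagg-3 minus mdagg-2 stayed between -0.02 and 0.06. Tested for any difference between the 3 lines at once, edgeR's quasi-likelihood F test called 0 members, with 0.00309% of all tested features called, and DESeq2 called 0, with 0.125% of all. At an unadjusted p under 0.05 there were 3 members, against 3.17% of all. The smallest edgeR adjusted p among the lines was 0.889, a value tied over many members. The smallest unadjusted p among them was that of MD14G1086800, which had 3.88 and 3.66 CPM in wt, against 6.69 and 5.07 for mdagg-2, 3.04 and 2.75 for mdagg-3 and 4.50 and 5.75 for mdagg-4. Its mdagg-3 libraries lay under wt and the others above it, with log2 differences of 0.62, -0.37 and 0.43. These 3 contrasts share libraries with those above, and the end of the increase in these lines had been used in the choice of the stretch, so they are a description too.

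The difference between replicate 2 and replicate 1 within the groups was not used in the choice of the members. In a fit with group and replicate number, edgeR called 0 members in either direction, with 0% of all tested features called higher and 0% lower. At an unadjusted p under 0.05, 5 members were higher in replicate 2 (5.17% of all) and 4 lower (6.44%). DESeq2 called 0 members, with 0.196% of all features called higher and 0.89% lower. The smallest edgeR adjusted p was 0.414, a value tied over several members, of which MD14G1088200 and MD14G1087900 had the smallest unadjusted p. The log2 difference of replicate 2 from replicate 1 was -0.49 with a standard error of 0.13 for MD14G1088200. It was -0.90 with a standard error of 0.25 for MD14G1087900, which had 7.47 and 4.15 CPM in wt, against 20.1 and 5.79 for mdagg-2, 14.004 and 10.8 for mdagg-3 and 5.46 and 3.61 for mdagg-4. Replicate 1 of this member was the higher library in all 4 groups.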

How the data were processed

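Leaf RNA was sequenced in 8 libraries made by a strand-specific mRNA protocol of Illumina, as the labels' protocols state. The authors deposited, per the file headers, a table per library with transcript length, TPM and estimated counts, which are not normalized. Salmon and DESeq2 are named in the submitters' processing notes, without versions, and neither a genome build nor an annotation was named in what was used here. From the authors' deposited table, log2 fold changes and adjusted p-values were taken unaltered, and its 12 count columns were not used.

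Estimated counts were rounded to whole numbers, filtered with edgeR's filterByExpr and scaled with TMM factors. The test was edgeR's quasi-likelihood F test (version 4.0.16, with limma 3.58.1, R 4.3.3) in 1 fit of 8 libraries with 4 residual degrees of freedom. Benjamini-Hochberg adjustment ran over all 32373 tested features, with a threshold of 0.05. Simulated data with known changes were used to check the fit. DESeq2 1.42.0, other filters, scalings, prior counts, split rules, a replicate block and left-out libraries were alternatives. P-values set each tested difference against the spread that the fit leaves between libraries, each a bulk of leaves. Totals of 28591909 to 36995911 reads set the counting precision.

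The members and lists were chosen with earlier results of these data known. Named members were those at each line's split, those with the highest TPM, those with the largest and smallest mean differences among well measured members, those called, those with the smallest p between replicates, and the first and last member. Others are said to be chosen after their values were seen. The lists of cell type markers and defence genes had 0 matched members and were not described.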

Additional observations from a re-analysis of the deposited data

Results flagged for a closer look

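For MD14G1086800 the lines lay on opposite sides of wt. Both mdagg-2 libraries and both mdagg-4 libraries were above the wt libraries and both mdagg-3 libraries under them. The log2 difference from wt was lower in mdagg-3 than in mdagg-2 by a difference of -0.99, and higher in mdagg-4 than in mdagg-3 by 0.80. Each pairwise difference was not tested by itself. The test across the 3 lines gave this member an edgeR adjusted p of 0.889, and its highest level in any library was 6.69 CPM.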

How the results depend on the processing

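The count of members called was 0 in each line, among the lines and between replicates under every alternative run, and the lowest adjusted p of any member was 0.0937 in mdagg-2, 0.160 in mdagg-3, 0.588 in mdagg-4, 0.0733 among the lines and 0.0879 between replicates. The median difference stayed above 0 in every alternative. In mdagg-2 it was 0.32 over well measured members and 0.30 without mdagg-2 replicate 1 and mdagg-4 replicate 2, and from 0.22 to 0.30 with single libraries left out. Left-out libraries gave 0.27 to 0.33 in mdagg-3 and 0.26 to 0.37 in mdagg-4. The split within the members moved most. In mdagg-2 it fell at member 35 by least squares, 110 (the last) by a running sum, 23 with a prior count of 0.5, and 14 to 43 with a library left out. In mdagg-3 it fell at member 97 by a running sum, 45 over well measured members, and 14 to 45 with a library left out. In mdagg-4 it fell at member 57 by least squares, 106 by a running sum, 50 with a prior count of 0.5, and 14 to 80 with a library left out. Over chromosome 14, an alternative chosen after seeing the data, the end lay at feature 569 over well measured features in mdagg-2, 548 by least squares in mdagg-3 and 588 by least squares in mdagg-4. Over all tested features of the chromosome, left-out libraries gave 546 to 570 in mdagg-2, 546 to 561 in mdagg-3 and 541 to 565 in mdagg-4. The cause was not tested.

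Same-numbered libraries deviated together in some group pairs and not in others, with correlations of their deviations from -0.31 between wt and mdagg-3 to 0.53 between mdagg-2 and mdagg-4. As not every pair of groups was above 0.1, the numbers were not taken to pair the samples. These correlations cannot show that the numbers are unpaired. In edgeR's fit with group and replicate number, 5.17% of all tested features were higher in replicate 2 and 6.44% lower, at an unadjusted p under 0.05. The fit with a replicate block called 0 members in each line and changed no call. Splits on single replicates, each set against the same-numbered wt library, are not what a block does. Within the members they fell at 14 and 10 in mdagg-2, at 45 for replicate 2 in mdagg-3 and at 53 for replicate 2 in mdagg-4. Over chromosome 14 such splits gave feature 565 for replicate 2 in mdagg-2, 546 for replicate 1 in mdagg-3 and 545 for replicate 1 in mdagg-4.

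With 2 libraries a group, no order between the places of the end can be read. The last members are features of uneven level, and the end of the increase is given as a range of identifiers and not as one gene.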

Other observations

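A feature beyond the end stood out after its values were seen. MD14G1095000 had 0.263 and 0.130 CPM in wt, from 9 and 5 reads. The values were 1.28 and 1.89 CPM for mdagg-2, 0.556 and 0.696 for mdagg-3 and 1.98 and 2.54 for mdagg-4, from 17 to 102 reads. All 6 knock-out libraries lay above both wt libraries at this low level, and the least-squares split in mdagg-4 ended at this feature.

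In the stretch, 7 members had both mdagg-4 libraries on the other side of wt from both mdagg-3 libraries or the reverse, as 3.47% of all tested features did. For mdagg-3 against mdagg-2 there were 2 such members (1.23% of all), and for mdagg-4 against mdagg-2 there was 1 (1.65%). These counts carry no test.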
